A study of Mus musculus with 11 samples.

Results

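Dusp10, Dusp16, Fbxw7, Cyld and Cdkn1a are genes whose products hold back stress-kinase, NF-κB or cell cycle signalling, and their transcripts were followed in primary mouse enteric glial cell cultures (msEGCs) given ATP. The members were all rows with one of these 5 gene symbols in the deposited transcript tables, which gave 11 transcripts of 5 genes out of 2510 transcripts of 1967 genes. The genes were chosen by their group means in this same contrast, ATP over Control, so all values below are descriptions and none was tested. The libraries were 6 of msEGCs treated with 100 µM ATP for 6 h and 5 of control msEGCs. The cells came from the muscularis externa of the small intestine of C57BL/6 mice aged 8 to 16 weeks, were kept as neurospheres for 4 days and then dissociated and replated. Since the labels give an ATP treatment for controls too, library titles were used to assign the groups. RNA was sequenced from the 3′ ends of polyadenylated transcripts (QuantSeq 3′ mRNA-Seq, single reads of 50 bases). The deposited tables hold the authors' mean for each group and no value per library, so the depth, the spread between libraries and any overlap of the groups are unknown here.

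Cells answer ATP released from damaged tissue through purinergic receptors, and the p38, JNK and ERK kinases are among the pathways that carry such stress signals onwards. These kinases are active when phosphorylated on a threonine and a tyrosine, and the dual-specificity phosphatases of the MAPK phosphatase family remove both phosphates. DUSP10 (MKP-5) and DUSP16 (MKP-7) act mainly on p38 and JNK. FBXW7 is the substrate-binding subunit of an SCF ubiquitin ligase that marks cyclin E, MYC, JUN and NOTCH proteins for degradation. CYLD removes K63-linked and linear ubiquitin chains from signalling proteins and thereby restrains NF-κB and JNK. CDKN1A (p21) binds and inhibits cyclin-dependent kinases and is a classical target of p53.

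In GENCODE M21, an annotation of the mouse genome build GRCm38, Dusp10 (ENSMUSG00000039384.8) lies at chr1:184013302-184075636 on the plus strand and Dusp16 (ENSMUSG00000030203.17) at chr6:134715468-134792625 on the minus strand. Fbxw7 (ENSMUSG00000028086.15) lies at chr3:84815268-84979198, Cyld (ENSMUSG00000036712.15) at chr8:88697028-88751945 and Cdkn1a (ENSMUSG00000023067.14) at chr17:29090976-29100727, all on the plus strand. RefSeq windows of 300 bases around annotated transcription starts (250 before and 50 after the start, GRCm38.p6) matched all 5 genes and gave 8 windows, 3 of them for Fbxw7 and 2 for Cdkn1a. The windows of both MAPK phosphatases and the upstream window of Cdkn1a are shown, since these hold matches to a loose JUN/ATF-type pattern and to a p53-type pattern. The capitals mark matches to TGACNTCA, where N is any base, which read TGACATCA in Dusp10 and TGACCTCA in Dusp16. In Cdkn1a they mark a p53-type element of 2 copies of ACATGT with 4 bases between them.
Dusp10, chr1:184034131-184034430, plus strand: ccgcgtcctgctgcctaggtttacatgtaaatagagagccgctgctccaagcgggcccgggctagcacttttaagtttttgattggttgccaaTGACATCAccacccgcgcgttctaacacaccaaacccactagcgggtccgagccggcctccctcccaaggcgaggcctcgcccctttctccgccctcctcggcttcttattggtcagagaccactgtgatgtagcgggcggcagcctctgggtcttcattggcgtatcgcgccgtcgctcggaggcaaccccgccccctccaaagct
Dusp16, chr6:134792579-134792878, minus strand: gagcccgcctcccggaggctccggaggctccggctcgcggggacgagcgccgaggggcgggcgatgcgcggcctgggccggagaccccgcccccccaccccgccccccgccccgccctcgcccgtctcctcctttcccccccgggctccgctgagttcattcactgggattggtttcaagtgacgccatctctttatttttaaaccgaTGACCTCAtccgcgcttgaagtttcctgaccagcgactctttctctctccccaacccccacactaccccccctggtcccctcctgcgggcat
Cdkn1a, chr17:29090729-29091028, plus strand: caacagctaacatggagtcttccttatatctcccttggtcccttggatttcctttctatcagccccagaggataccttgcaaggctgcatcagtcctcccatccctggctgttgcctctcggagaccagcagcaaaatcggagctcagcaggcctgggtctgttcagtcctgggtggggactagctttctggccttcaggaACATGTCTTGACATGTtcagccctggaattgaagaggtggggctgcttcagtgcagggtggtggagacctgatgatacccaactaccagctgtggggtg
The match to TGACNTCA began at position −157 from the start in Dusp10 and at −42 in Dusp16. Searched on both strands, TGACNTCA was held by 2 of the 8 member windows and by 8.83% of 32851 mouse windows. The p53-type element began at −49 in the upstream window of Cdkn1a, and the other Cdkn1a window held no match. Its exact spelling, as given above, was held by 4 of the 32851 windows, which is 0.0122%. This spelling was chosen after the Cdkn1a window had been read, so nothing is read from the match there. Other spellings of p53-type elements were not searched, so the share does not describe such elements in general. The AP-1 motif TGANTCA was in none of the 8 member windows and in 7.81% of all windows. The GC box GGGCGG was in 6 of the 8 member windows, against 35.7% of all windows. The antioxidant response core TGACNNNGC was in 2 member windows, against 12.4% of all windows. The CCAAT box was in 3 member windows, against 37.4%, and the TATA box TATAAA in 1, against 13.6%. The motifs were chosen after these sequences had been read. A match is a run of letters, and no binding was measured here.

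Of the 11 transcripts, 7 were at least 1.5-fold higher in ATP-treated than in control msEGCs, none was at least 1.5-fold lower, and 4 lay between. The fold limit of 1.5 is the one in the methods of the study, and each fold here is the authors' ATP mean over the authors' Control mean, both in a signal that looks scaled for library depth. Of the other 2327 transcripts of the tables on this scale, 43.9% were at least 1.5-fold higher and 47.9% at least 1.5-fold lower. Each of the 5 genes had exactly 1 transcript in the table of significant genes, and all 5 were higher, against 47.8% of its 2071 transcripts. This count was fixed by the choice of the genes and nothing is read from it. The median fold was 1.82 over the 11 transcripts and 0.859 over all 2338. Only 196 of the 2338 lay between 1.5-fold higher and 1.5-fold lower, so 0.859 falls where few transcripts lie. Since the genes were chosen by this contrast, nothing is read from these medians or from the 7 of 11. The transcript just above the fold limit was Dusp16-005 at 1.58, and the one just below it was Fbxw7-004 at 1.44.

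**Figure D1:**
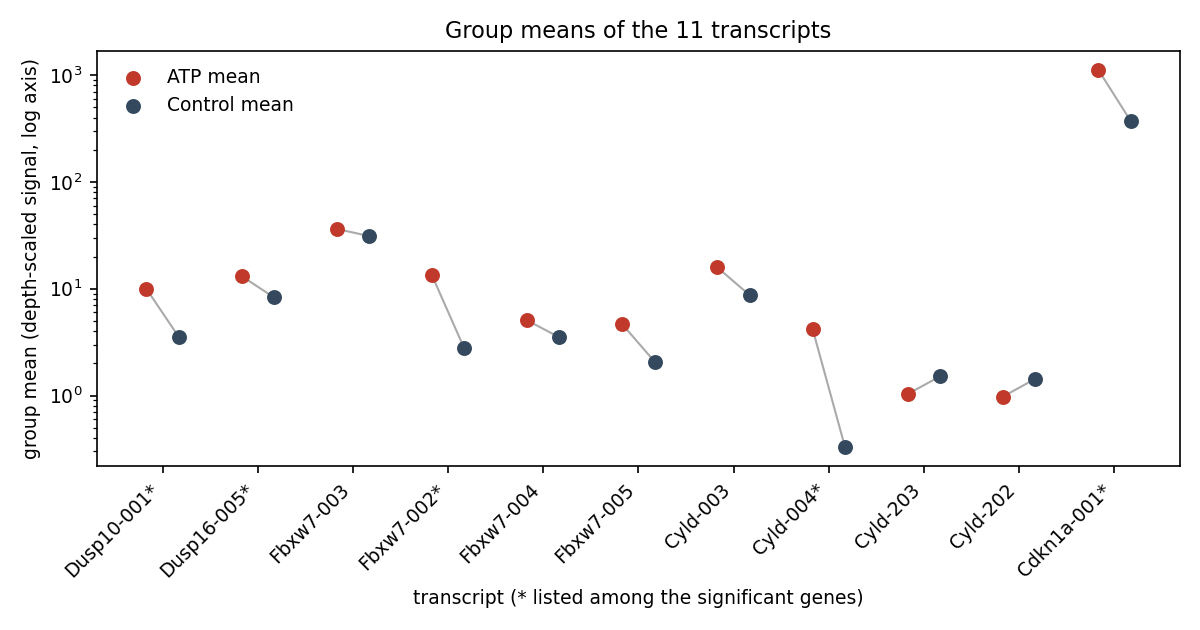
Authors' group means of the 11 transcripts in ATP-treated msEGCs (red, left) and control msEGCs (dark, right), as depth-scaled signal on a log axis, with no error bars since the tables hold no value per library. The red point is the higher one in 9 transcripts and the lower one in Cyld-203 and Cyld-202.

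The 2 phosphatases were both higher with ATP. Dusp10-001 had a mean of 9.97 in ATP-treated msEGCs and 3.54 in control msEGCs, which is a 2.82-fold difference (log2 1.49). Among the 989 transcripts listed as significant and higher, this fold ranked 160th. Dusp16-005 had 13.1 in ATP-treated and 8.30 in control msEGCs, a fold of 1.58 (log2 0.66) that ranked 852nd. Dusp10 and Dusp16 each had this 1 transcript in the tables, and both were also listed among the genes of motility and MAPK regulation. The family holds further phosphatases. Of 10 MAPK phosphatase genes looked for, 4 had a row, and all 4 were higher in the table of significant genes, in which 48.9% of 1828 genes had a higher transcript. Dusp10 and Dusp16 were chosen for their values, so only Dusp5 and Dusp8 add to this count, and nothing is read from it. Dusp5-001, an ERK phosphatase of the nucleus, had 7.06 in ATP-treated and 3.61 in control msEGCs (1.96-fold). Dusp8-001, which acts on JNK and p38, had 12.0 in ATP-treated and 6.93 in control msEGCs (1.73-fold). Of these 4 genes only Dusp10 reached a fold of 2. The family members without a row, Dusp1 and Dusp6 among them, were not analysed here, since the tables hold only transcripts that the authors listed.

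Cdkn1a had the largest difference in level of the members. Cdkn1a-001 had a mean of 1125 in ATP-treated and 373.5 in control msEGCs, a difference of 751 and a fold of 3.01 (log2 1.59). With 8617 in summed signal over the 11 libraries, its fold is the least sensitive of the 5 to what is added to the means, and it stayed at 3.01 with 1 added to both. The fold ranked 133rd of the 989 higher transcripts. Cdkn1a was listed only in the table of significant genes and in none of the tables for gliosis, cytokine response, motility or MAPK regulation.

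Of 23 genes of the p53 pathway looked for, p53 itself included, 7 had a row. In the table of significant genes 5 were higher and 2 lower, and 48.9% of 1828 genes there had a higher transcript. Cdkn1a, 1 of the 5, was chosen for its value, and nothing is read from this count. Mdm2-003, which encodes the ligase that degrades p53 and is itself induced by it, had 183.3 in ATP-treated and 55.6 in control msEGCs (3.30-fold). Mdm2-001 was 2.08-fold and Mdm2-002 2.14-fold higher, and summed over its 3 transcripts Mdm2 was 3.02-fold higher. Aen, a nuclease gene induced by p53, had 55.3 in ATP-treated and 30.9 in control msEGCs for Aen-002 (1.79-fold) and 17.9 in ATP-treated and 7.32 in control msEGCs for Aen-004 (2.44-fold). Pmaip1-201, which encodes the apoptosis protein NOXA, had 14.5 in ATP-treated and 8.23 in control msEGCs (1.76-fold). Trp53-201, a transcript of p53, had 4.55 in ATP-treated and 1.12 in control msEGCs (4.06-fold), while the 4 transcripts of Trp53 together were 1.72-fold higher. Only Trp53-201 was listed as significant. Trp53-001 had 4.43 in ATP-treated and 3.62 in control msEGCs (1.22-fold). Trp53-002 was at 1.30-fold and Trp53-003 at 1.65-fold. Trp53 falls outside the rule for named genes and was named after its values were seen. The 2 lower genes were a death receptor and a stress-response gene. Fas-201 had 3.12 in ATP-treated and 7.81 in control msEGCs (0.400-fold), and Sesn1-002 had 4.99 in ATP-treated and 8.96 in control msEGCs (0.557-fold). Of 24 CDK inhibitor and cell cycle genes, 4 had a row. Beside Cdkn1a, Cdk2-201, a kinase that p21 inhibits, was 1.65-fold higher (11.1 in ATP-treated and 6.71 in control msEGCs). E2f1-001, a transcription factor of S-phase entry, was lower at 0.579-fold (10.6 in ATP-treated and 18.3 in control msEGCs). Cdk4, the remaining gene with a row, was not listed as significant and falls outside the rule for named genes. Summed over its transcripts it had 71.5 in ATP-treated and 97.2 in control msEGCs (0.735-fold), with Cdk4-008 at 0.587-fold and the more abundant Cdk4-001 at 0.773-fold. No other CDK inhibitor gene of the list had a row.

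**Figure D2:**
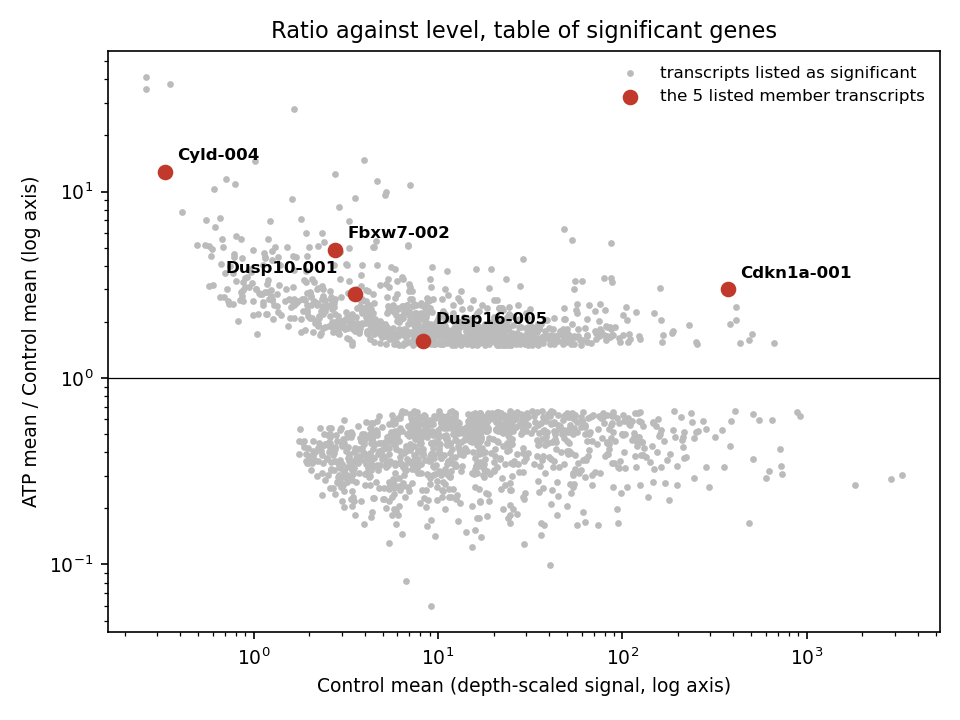
ATP mean over Control mean against the Control mean (depth-scaled signal), both on log axes, for the transcripts of the table of significant genes, with the 5 listed member transcripts in red. The members run from Cyld-004 with a Control mean of 0.329 and a fold of 12.7 to Cdkn1a-001 with 373.5 and 3.01, and the band between 1.5-fold higher and lower is empty because the table holds no such transcript.

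Fbxw7 and Cyld had 4 transcripts each, whose folds differed. For Fbxw7 the most abundant name, Fbxw7-003, differed little, with 36.3 in ATP-treated and 31.1 in control msEGCs (1.17-fold). Fbxw7-002 had 13.3 in ATP-treated and 2.76 in control msEGCs (4.84-fold, log2 2.28), ranked 52nd of the 989 higher transcripts, and was the only Fbxw7 transcript in the table of significant genes. Fbxw7-005 had 4.64 in ATP-treated and 2.07 in control msEGCs (2.24-fold), and Fbxw7-004 had 5.05 in ATP-treated and 3.50 in control msEGCs (1.44-fold). Fbxw7-005 thus passed the fold limit without being listed as significant. All 4 stood in the table of MAPK regulation. Summed over the 4, Fbxw7 had 59.3 in ATP-treated and 39.5 in control msEGCs, a fold of 1.503, at the limit, that dropped to 1.25 without Fbxw7-002. Of the difference in the sum, 53.3% lay in Fbxw7-002 and 25.9% in Fbxw7-003. The share of Fbxw7-002 in the gene was 22.5% in ATP-treated and 6.99% in control msEGCs, and that of Fbxw7-003 was 61.1% in ATP-treated and 78.9% in control msEGCs.

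Cyld-003 made up most of the Cyld signal, with 15.8 in ATP-treated and 8.67 in control msEGCs (1.82-fold, log2 0.87), and it was not listed as significant. The listed transcript was Cyld-004, with 4.18 in ATP-treated and 0.329 in control msEGCs. Its fold of 12.7 (log2 3.66) was the 7th largest of the 989 higher transcripts, and rested on a Control mean well under 1. With 1 added to both means it was 3.89. Its summed signal over the 11 libraries was 26.7. Cyld-203 had 1.03 in ATP-treated and 1.52 in control msEGCs, and Cyld-202 had 0.978 in ATP-treated and 1.43 in control msEGCs, so both pointed the other way at 0.682-fold (log2 −0.55), short of the limit for lower. All 4 Cyld transcripts were in the tables of motility and of MAPK regulation. Summed over them, Cyld had 22.0 in ATP-treated and 12.0 in control msEGCs (1.84-fold). Cyld-003 carried 71.0% of this difference and Cyld-004 38.3%, with small negative parts from the other names. The share of Cyld-003 in the gene was nearly the same in both groups (71.9% in ATP-treated and 72.6% in control msEGCs), while that of Cyld-004 was 19.0% in ATP-treated and 2.76% in control msEGCs. Cyld-203 and Cyld-202 together took up the difference: Cyld-203 had 4.70% in ATP-treated and 12.7% in control msEGCs, and Cyld-202 had 4.45% in ATP-treated and 12.0% in control msEGCs.

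**Figure D3:**
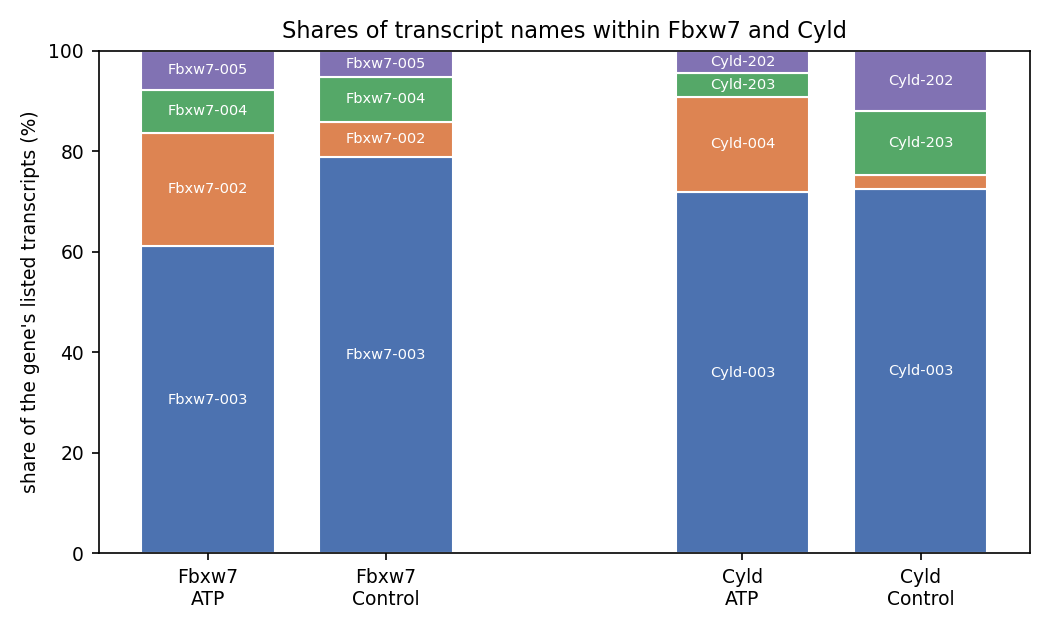
Share of each transcript name in the summed signal of its gene (percent), for Fbxw7 (left pair of bars) and Cyld (right pair), each with ATP-treated msEGCs left of control msEGCs. The orange segment, Fbxw7-002 or Cyld-004, is 22.5% and 19.0% in ATP-treated msEGCs, against 6.99% and 2.76% in control msEGCs, where the Cyld-004 segment is too thin to be labelled.

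The split between transcript names bears on how these values can be read, since the assay reads 3′ ends. In GENCODE M21 all 4 coding transcripts of Fbxw7 end within 2 kb of each other, and 4 of the 7 coding transcripts of Cyld end at the same base. The transcript names in the deposited tables look like an older scheme. Of the 4 Cyld names 2 also occur in GENCODE M21, and no name of the other members does. Whether a shared name stands for the same model was not checked. The sources used here do not say how reads were divided among names, and the part of that step in the shares was not tested. Cyld-203 and Cyld-202 had the same ratio to a relative difference of 3.58e-06, and Cyld-203 was 1.06 times Cyld-202 in both groups. Among all pairs of transcripts of 1 gene in the table of MAPK regulation, 10 of 226 (4.42%) had ratios equal within a relative 1e-04. Among the 58 genes of that table with several transcripts, the largest shift in share had a median of 6.44 percentage points and went up to 38.2. Fbxw7 ranked 5th with −17.7 points for Fbxw7-003 and Cyld 7th with 16.2 points for Cyld-004. The highest fold of a transcript over the fold of its gene's sum was 6.89 in Cyld, the largest of the 58, and 3.22 in Fbxw7, the 3rd largest, with a median of 1.42. The value for Cyld rests on Cyld-004, whose Control mean was 0.329 and whose fold was 3.89 with 1 added to both means. These ranks were not recomputed with 1 added. Both genes were chosen by this contrast, so nothing is read from their ranks.

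The 4 genes in the table of MAPK regulation (all but Cdkn1a) had 10 transcripts there, of which 6 were at least 1.5-fold higher and none lower. In that table of 228 transcripts 26.8% were at least 1.5-fold higher and 36.0% at least 1.5-fold lower. The median fold was 1.70 for the 10 transcripts and 0.942 for the table. In the table of motility regulation, 3 of the genes (Dusp10, Dusp16 and Cyld) had 6 transcripts, of which 4 were at least 1.5-fold higher, against 33.2% of its 325 transcripts. The genes were chosen by this contrast, so nothing is read from these counts or medians. The values of a transcript were identical wherever it was listed more than once.

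Genes upstream and downstream of the members lay on both sides. Of 25 p38 and JNK cascade genes, 5 had a row, with 2 higher and 2 lower among the significant genes. Map2k3-002, a kinase that activates p38, had 38.4 in ATP-treated and 22.0 in control msEGCs (1.75-fold), and Map3k12-002, a JNK pathway kinase, had 5.78 in ATP-treated and 3.12 in control msEGCs (1.85-fold). Map3k10-002, of a kinase upstream of JNK, was lower, with 2.89 in ATP-treated and 7.43 in control msEGCs (0.389-fold), as was Map3k14-002, the kinase NIK of noncanonical NF-κB signalling, with 0.706 in ATP-treated and 1.99 in control msEGCs (0.354-fold). Of 14 ERK cascade genes, 1 had a row, the ERK kinase Map2k2, whose Map2k2-001 was 1.76-fold higher (15.3 in ATP-treated and 8.71 in control msEGCs). The more abundant Map2k2-006 had 48.2 in ATP-treated and 44.4 in control msEGCs (1.08-fold), and the sum of both was 1.19-fold, under the limit. Of 16 other inhibitors of MAPK signalling, 4 had a row. The phosphatase transcript Ptpn12-007 was 2.22-fold higher (16.9 in ATP-treated and 7.61 in control msEGCs) and the Ras GTPase activator Rasa2-001 was 1.79-fold higher (32.9 in ATP-treated and 18.4 in control msEGCs). The phosphatase transcript Ppm1b-201 was lower at 0.639-fold (4.50 in ATP-treated and 7.05 in control msEGCs). The other Ppm1b transcripts pointed the other way, with 37.0 in ATP-treated and 28.7 in control msEGCs for Ppm1b-202 (1.29-fold) and 4.48 in ATP-treated and 2.74 in control msEGCs for Ppm1b-204 (1.63-fold), and the sum of the 3 was 1.20-fold.

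Among 22 genes of the SCF ligase and of FBXW7 substrates, 4 had a row, and 2 were higher and 2 lower. Beside Fbxw7 the higher one was Jun, which encodes a substrate of FBXW7 and a target of JNK, with 325.8 in ATP-treated and 186.3 in control msEGCs for Jun-001 (1.75-fold). Hif1a-003, of the hypoxia factor, was lower with 35.1 in ATP-treated and 84.7 in control msEGCs (0.414-fold), and Notch3-001, of a Notch receptor, with 1.62 in ATP-treated and 4.19 in control msEGCs (0.386-fold). These are RNA levels, and protein levels were not measured here. Among 26 genes of CYLD, ubiquitin-chain and NF-κB signalling, 6 had a row, with 4 higher and 1 lower. The higher ones beside Cyld were the IκB kinase subunit transcript Chuk-002 (8.40 in ATP-treated and 4.39 in control msEGCs, 1.91-fold), the NF-κB inhibitor transcript Nfkbib-002 (25.2 in ATP-treated and 14.9 in control msEGCs, 1.69-fold) and the ubiquitin ligase transcript Traf6-001 (8.93 in ATP-treated and 5.52 in control msEGCs, 1.62-fold). Ikbke-002, of an IκB kinase-related kinase, was lower with 1.53 in ATP-treated and 3.68 in control msEGCs (0.417-fold). Fbxw7 and Cyld were chosen for their values and count among the higher genes of these lists. Nothing is read from these counts, and 48.9% of 1828 genes listed as significant, Gfap left out, had a higher transcript.

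**Figure D4:**
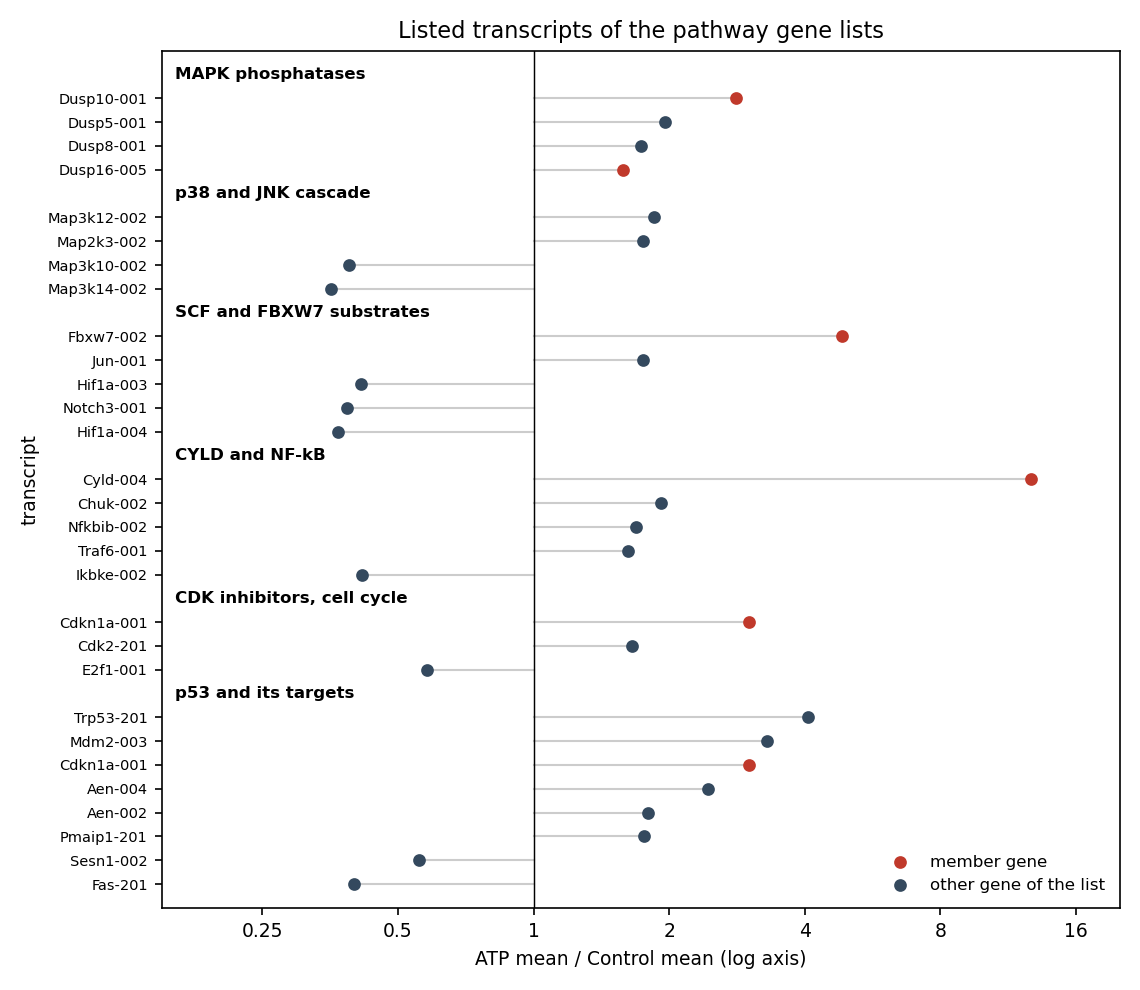
ATP mean over Control mean (log axis) of the transcripts of 6 pathway gene lists that stand in the table of significant genes, with member genes in red and other genes in dark. The MAPK phosphatases, of which Dusp10 and Dusp16 were chosen for their values, all lie right of 1, between 1.58 and 2.82, while each of the other lists has transcripts on both sides.

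In the deposited table of GO terms, 117 of the 592 genes annotated to regulation of the MAPK cascade (19.8%) were in the authors' list, and 30 of 152 (19.7%) for its negative regulation, against 13.8% of the 14200 genes annotated to any biological process. Positive regulation of the MAPK cascade had nearly the same share as negative regulation, with 78 of 408 (19.1%). For MAP kinase tyrosine/serine/threonine phosphatase activity the share was 5 of 12 (41.7%), for negative regulation of the p38MAPK cascade 5 of 7 (71.4%) and for negative regulation of the JNK cascade 7 of 29 (24.1%). For the SCF ubiquitin ligase complex it was 9 of 59 (15.3%), for protein deubiquitination 16 of 91 (17.6%) and for cell cycle arrest 8 of 81 (9.88%). Inactivation of MAPK activity had 5 of 16 (31.2%), and negative regulation of canonical Wnt signalling 18 of 103 (17.5%). The stress-activated MAPK cascade had 7 of 43 (16.3%) and negative regulation of the cell cycle 55 of 352 (15.6%). Negative regulation of NF-κB factor activity had 10 of 68 (14.7%), and cyclin-dependent kinase inhibitor activity 1 of 12 (8.33%). These shares do not separate higher from lower genes, the list behind them is not named, and they were not tested.

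The cultures also contain fibroblasts by the study's account, and markers of other cells differed with the groups. Of 12 fibroblast markers 5 had a row (Col1a2, Col3a1, Fn1, Pdgfrb and Postn), with 12 of their 13 transcripts lower and a summed signal of 1709 in ATP-treated and 5192 in control msEGCs. Of 14 enteric neuron markers 5 had a row, with 5 of 7 transcripts higher and sums of 416 in ATP-treated and 234 in control msEGCs. Of 12 enteric glial markers only Apoe and Cryab had usable rows, with 1 transcript higher, 3 lower and sums of 1156 in ATP-treated and 948 in control msEGCs. The higher sum rests on Cryab alone (1023 in ATP-treated and 668 in control msEGCs). Apoe, summed over its 3 transcripts, was lower, with 133 in ATP-treated and 280 in control msEGCs. Sox10 and S100b had no row, and the direction of Gfap was not read. Of 9 smooth muscle markers only Lmod1 had a row (1.28 in ATP-treated and 3.27 in control msEGCs). None of 9 macrophage and 7 endothelial markers had a row. The part of these differences in the values of the 5 genes was not tested. In bulk RNA, a change in the number of cells of a type and a change in RNA per cell cannot be told apart. The library codes fall into 3 series, one of 3 ATP libraries only, one of 2 control libraries only and one with 3 of each, and with group means alone, code series and treatment cannot be told apart.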

How the data were processed

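The submitters' processing notes name Partek. The sources used here name no aligner, genome build or annotation. Of the 6 deposited tables, 5 list transcripts and the sixth GO terms. In 4 transcript tables the authors' values look like a depth-scaled signal, by a method the sources do not name. The deposited gliosis table holds means of estimated counts without such scaling and has no member. In all member rows the total matched the group means weighted by 6 ATP and 5 Control libraries, to a relative 5.66e-15. The authors' own comparison columns hold p-values, adjusted p-values, ratios and fold changes, and were not used, so no value has an error, n or test.

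Folds are ATP mean over Control mean, without a pseudocount. The genes, lists, motifs and alternatives were chosen with earlier results of these data known. All member transcripts are named, and of each list up to 4 genes per direction at 1.5-fold or more in the table of significant genes, by the larger group mean. The totals of the Gfap rows fit only with the group means exchanged. Gfap was therefore left out of the gene and marker lists and of the share over 1828 genes listed as significant. It stayed as deposited in counts and ranks of transcripts over whole tables. With its means exchanged, 988 of 2071 significant transcripts (47.7%) were higher, and of the member ranks only that of Dusp16-005 moved, to 851. Only the calls at the 1.5-fold limit and the search for equal ratios were run on simulated data, and the other steps were not. The software was Python 3.11.15, pandas 2.3.3, numpy 2.4.6 and matplotlib 3.10.9. Promoters are from RefSeq, positions from GENCODE M21.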

Additional observations from a re-analysis of the deposited data

How the results depend on the processing

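No paired analysis was possible because the deposited tables hold 1 mean per group and no value per library, and for the same reason no library was left out. Under 8 other settings 91 values were recomputed. Of these, 72 kept their side of the 1.5-fold limit, where they had one, and lay within 1.5 times the first value. A further 3 fell below the limit, 16 moved by more than 1.5 times and 0 changed direction. Some of the 72 could not have changed, so their number does not measure robustness. Examples are counts of 0 lower transcripts at the stricter fold of 2, and the members' count in the table of significant genes. Of the 11 transcripts, 7 were at least 1.5-fold higher; with 1 transcript per gene, the one with the largest total, 4 of 5 genes were higher, Fbxw7-003 being the exception. With a fold of 2, or with a larger group mean of at least 5, 5 transcripts remained above the limit. With 1 added to both means Cyld-004 was 3.89-fold higher in place of 12.7, while the other 21 of 22 folds of member transcripts under a pseudocount of 0.1 or 1 moved by at most 1.5 times and kept their side of the limit. Within that range Cyld-004 was 9.96 with 0.1 added, and with 1 added Fbxw7-002 was 3.82, Dusp10-001 2.42 and Fbxw7-005 1.84. The summed Fbxw7 signal sat at the limit with 1.503, and was 1.49 with 1 added, 1.25 without Fbxw7-002 and 1.46 over transcripts with a larger mean of at least 5.

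At a fold of 2 the genes counted as higher were 1 for MAPK phosphatases, 1 for other MAPK inhibitors, 0 for the p38 and JNK cascade, 0 for the ERK cascade, 1 for SCF and FBXW7 substrates, 1 for CYLD and NF-κB and 1 for CDK inhibitors and cell cycle; those lower were 0 for other MAPK inhibitors, 0 for cell cycle and 1 for the p53 pathway. With 1 added, 0 other MAPK inhibitors were lower. With a larger mean of at least 5, 1 p38 and JNK gene, 1 FBXW7 substrate and 0 CYLD and NF-κB genes were lower. Low means limit Cyld-004, Cyld-203 and Cyld-202 most.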
